A study of Mus musculus with 12 samples.

Results

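The liver turns cholesterol into bile acids along a pair of routes. The classic route opens with the 7-alpha-hydroxylase Cyp7a1, its rate-limiting enzyme, and Cyp8b1 adds the hydroxyl group that makes the product cholic acid. The alternative route opens with side-chain oxidation by Cyp27a1, and Cyp7b1 and Cyp39a1 then hydroxylate oxysterols. Both routes share later enzymes of the ring and side chain, and the finished acids are activated by Slc27a5 and joined to taurine or glycine by Baat. Bile acids that return to the liver repress Cyp7a1 and Cyp8b1 through the nuclear receptor Nr1h4 and its target Nr0b2 and through a signal from the intestine read by Fgfr4 with Klb.

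The genes described here are 10 enzymes of this pathway, taken by their gene name in the scanner files: Cyp7a1 and Cyp8b1 (classic), Cyp27a1, Cyp7b1 and Cyp39a1 (alternative), Hsd3b7, Akr1d1 and Amacr (shared steps), and Slc27a5 and Baat (conjugation). They had 13 of the 41174 gene probes on the array, and all 13 were among the 21693 probes tested, which stood for 15375 gene names. Cyp7a1, Cyp39a1 and Baat had a pair of probes each and the other genes had 1. A gene with a pair of probes is represented by the brighter one, and the other is given beside it.

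Livers of Abcb4(-/-) mice, which cannot bring phospholipid into bile, were set against livers of Abcb4(+/+) mice. Both RNAs were hybridised together in 2 dyes, on 12 mouse arrays from Agilent. The knockout mice were fed cholic acid (CA) for 9 weeks in one group and ursodeoxycholic acid (UDCA) for 9 weeks in the other, meant by the series' design to raise and to lower disease activity. UDCA lacks the hydroxyl group that Cyp8b1 adds and carries the hydroxyl group at the position that Cyp7a1 acts on turned the opposite way. Each group had 5 livers, none pooled, on 6 arrays, so that 1 pair of arrays in each group shares a liver. The knockout RNA was in Cy5 on arrays 1 to 3 of each group and in Cy3 on arrays 4 to 6. No knockout liver without a fed bile acid was analysed here, so that the genotype and the diet cannot be told apart in a ratio to wild type. The sources used here do not give the doses, strain, sex, age, hour of sampling or diet of the wild-type mice.

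Values are log2 ratios on each array, with the knockout over the wild type, so that -1 means a 2-fold lower level in the knockout. The median intensity per array was 250.2 to 1296 in green (Cy3) and 59.2 to 158.2 in red (Cy5). Precision is limited by the number of arrays. A change was called at an adjusted p under 0.05 (limma, Benjamini-Hochberg over all tested probes). The median over all genes was 0.10 in CA-fed and 0.04 in UDCA-fed livers. The knocked-out gene read lower than wild type in both groups by both of its probes, at -0.73 ± 0.21 and -2.73 ± 0.21 in CA-fed livers and -1.28 ± 0.21 and -1.77 ± 0.21 in UDCA-fed livers (SE), although 1 array of each group read above 0 by the brighter probe. The sources used here do not place these probes inside or outside the deletion.

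Sequences are shown for what the results turn on. Of the probes, those of Cyp7a1 and Baat that never reached the ceiling of the scanner are printed, since for both genes the brighter probe did reach it. Probe A_51_P290981 of Cyp7a1 lies at chr4:6195632-6196238 (mm7, minus strand), a stretch longer than the probe itself, and probe A_52_P43150 of Baat at chr4:49503875-49503934 (mm7, minus strand).
Cyp7a1 A_51_P290981: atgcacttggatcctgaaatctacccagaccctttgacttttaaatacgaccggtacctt
Baat A_52_P43150: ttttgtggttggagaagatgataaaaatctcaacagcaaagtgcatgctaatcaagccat

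Of the promoters, those of Cyp8b1 and Akr1d1 are printed, the genes without an overlap between the diets that have an entry in the RefSeq promoter table, which held 4 of the 10 genes (Cyp8b1, Cyp27a1, Akr1d1 and Hsd3b7). They are the 250 bases before the start in GRCm38.p6, at chr9:121916306-121916555 (minus strand) for Cyp8b1 and chr6:37529923-37530172 (plus strand) for Akr1d1. The capitals mark a match to CAAAGTCCA, a form of the site bound by the liver factor Hnf4a.
Cyp8b1: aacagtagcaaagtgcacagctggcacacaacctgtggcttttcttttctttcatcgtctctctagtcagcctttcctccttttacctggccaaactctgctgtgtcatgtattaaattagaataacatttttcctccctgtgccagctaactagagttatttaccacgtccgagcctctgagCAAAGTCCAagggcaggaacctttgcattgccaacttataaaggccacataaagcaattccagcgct
Akr1d1: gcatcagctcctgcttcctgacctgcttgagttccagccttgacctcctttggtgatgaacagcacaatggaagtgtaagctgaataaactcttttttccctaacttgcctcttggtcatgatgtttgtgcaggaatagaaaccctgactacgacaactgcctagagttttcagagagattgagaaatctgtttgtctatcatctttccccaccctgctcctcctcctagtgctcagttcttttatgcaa

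Each window was searched on both strands, from 250 bases before to 50 after the start, for CAAAGTCCA, for TCAAGGNCA (a site of Nr5a2) and for TTATGTAA (a site of Dbp, Tef and Hlf). The Cyp8b1 window held 1 match, the CAAAGTCCA at positions -67 to -59 from the start on the strand of the gene, and the windows of Cyp27a1, Akr1d1 and Hsd3b7 held none of the 3 motifs. Over 32851 mouse promoter windows of the same length, 0.475% held CAAAGTCCA, 1.62% held TCAAGGNCA and 0.938% held TTATGTAA. A match is a description of the letters only.

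Across the pathway, 7 of the 10 genes were lower in CA-fed knockout livers than in wild type and none was higher. Slc27a5, counted among the 7, was at the scanner's ceiling on most arrays, and 6 were lower without it. Hsd3b7 and Amacr, among those not called, were at the ceiling on most arrays too. Of all genes tested, 22.4% were lower and 37.8% were higher in that comparison. In UDCA-fed knockout livers 6 of the 10 were lower, or 5 without Slc27a5, and none was higher, against 8.79% lower and 17.2% higher of all genes. Between the diets, 3 of the 10 were lower with CA than with UDCA and 1 was higher, against 8.87% and 18.8% of all genes. The diets were compared as 1 pair of compounds at the same time, with doses not known to match, and each through its own wild-type arrays. With median centring in place of loess, 3 of the 10 were called lower with CA (Cyp7a1, Cyp8b1 and Cyp7b1) and 1 with UDCA (Cyp7b1), and between the diets 1 was called, Cyp8b1. In whole liver, fewer hepatocytes and less RNA per hepatocyte cannot be told apart.

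**Figure D1:**
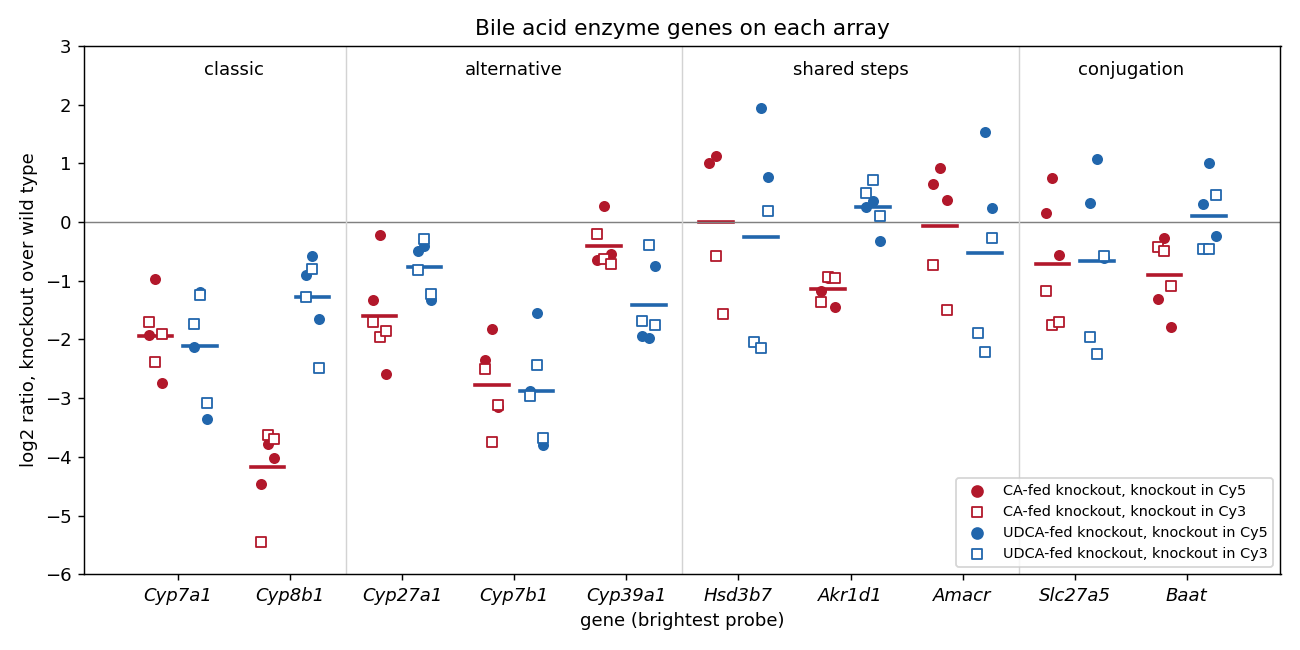
Log2 ratio of knockout over wild type (y axis) for the brightest probe of each of the 10 genes (x axis) on every array, CA-fed left of UDCA-fed, with filled circles for arrays with the knockout in Cy5, open squares for Cy3, and bars for the mean over the arrays with a value. Cyp8b1 lies at -3.63 or below on all 6 CA arrays and at -2.48 or above on all 6 UDCA arrays, while Hsd3b7, Amacr and Slc27a5 split by dye.

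In the classic route both genes were lower than wild type with either diet, and the diets differed in Cyp8b1. Cyp8b1 (probe A_51_P266618, mm7, chromosome 9, 121617140 to 121617199) had ratios with a lowest value of -5.45, a median of -3.89 and a highest value of -3.63 in CA-fed livers, and of -2.48, -1.09 and -0.59 in UDCA-fed livers. All 6 CA-fed arrays lay below all 6 UDCA-fed arrays, an order that 3.13% of all genes showed. Its level was 18.0-fold lower than wild type with CA (95% interval 12.7 to 25.6, log2 -4.17 ± 0.24, adjusted p = 2.53e-09) and 2.43-fold lower with UDCA (1.71 to 3.46, log2 -1.28 ± 0.24, adjusted p = 0.000992). The difference between the diets was 7.41-fold (4.51 to 12.2, log2 -2.89 ± 0.34, adjusted p = 5.62e-05). Counted from the most lowered of the 15375 genes, Cyp8b1 stood at place 8 with CA, at place 121 with UDCA and at place 5 in the difference. The CA-fed signal was well above background on only 4 of 6 arrays and the wild-type signal was at the scanner's ceiling on 1. The size of the fall depended on the processing. Over the other ways of processing and fitting the arrays, the log2 ratio with CA ran from -5.91 to -3.92. The difference between the diets ran from -4.29, with the scanner's processed log ratio, to -2.46, and was called each time.

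Cyp7a1, the first enzyme of the classic route, was lower on every array of both diets by both probes. Its brighter probe, A_52_P84027 (mm7, chromosome 4, 6193456 to 6193515), read -2.74 at the lowest, -1.91 at the median and -0.97 at the highest in CA-fed livers, and -3.35, -1.93 and -1.19 in UDCA-fed livers, so that the diets overlapped widely. The fitted ratio was -1.94 ± 0.27 with CA (3.83-fold lower, adjusted p = 2.04e-05) and -2.12 ± 0.27 with UDCA (4.35-fold lower, adjusted p = 3.84e-05). Their difference was 0.18 ± 0.38 (adjusted p = 0.760), with a 95% interval of -0.63 to 0.999. The wild-type signal of this probe was at the ceiling on CA arrays 1 and 2.

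The probe of Cyp7a1 printed above gave another balance of the diets. It read -2.74, -2.33 and -1.04 (lowest, median, highest) in CA-fed livers and -2.16, -1.13 and -0.59 in UDCA-fed livers. Its fitted ratios were -2.16 ± 0.23 with CA (adjusted p = 1.21e-06) and -1.31 ± 0.23 with UDCA (adjusted p = 0.000591). The difference of -0.84 ± 0.32 did not pass the threshold (adjusted p = 0.0657, 95% interval -1.53 to -0.15). On all 6 UDCA arrays it read higher than the brighter probe, by 0.32 to 1.19, whereas in CA-fed livers it was lower on 4 and higher on 2. The difference by this probe passed in 5 other settings: without background correction (-0.90, adjusted p = 0.0477), with the authors' series table (adjusted p = 0.0220), and without CA array 6 (-1.07, adjusted p = 0.0163), UDCA array 3 (-1.01, adjusted p = 0.0402) or UDCA array 6 (-1.05, adjusted p = 0.0145). That of the brighter probe changed sign and stayed below the threshold with the saturated values left out (-0.16), with the series table (-0.11), with the slide as a fixed block (-0.98) and without CA array 2, UDCA array 3 or UDCA array 6.

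Set against each other on the same array, Cyp8b1 and Cyp7a1 moved by different amounts in CA-fed livers. The log2 ratio of Cyp8b1 minus that of Cyp7a1 lay between -3.74 and -1.24 on the 6 CA arrays (median -2.18). Cyp8b1 was not well above background in the knockout on CA arrays 3 and 5, and wild-type Cyp7a1 was at the ceiling on CA arrays 1 and 2, so that the sizes there are not exact. On CA arrays 4 and 6, with neither limit, the values were -3.74 and -1.80. In UDCA-fed livers it lay between 0.45 and 1.69 (median 0.60) with the brighter Cyp7a1 probe. With the other Cyp7a1 probe the CA values lay between -2.89 and -1.19, and the UDCA values, at -0.54 to 0.50, fell on both sides of 0.

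**Figure D2:**
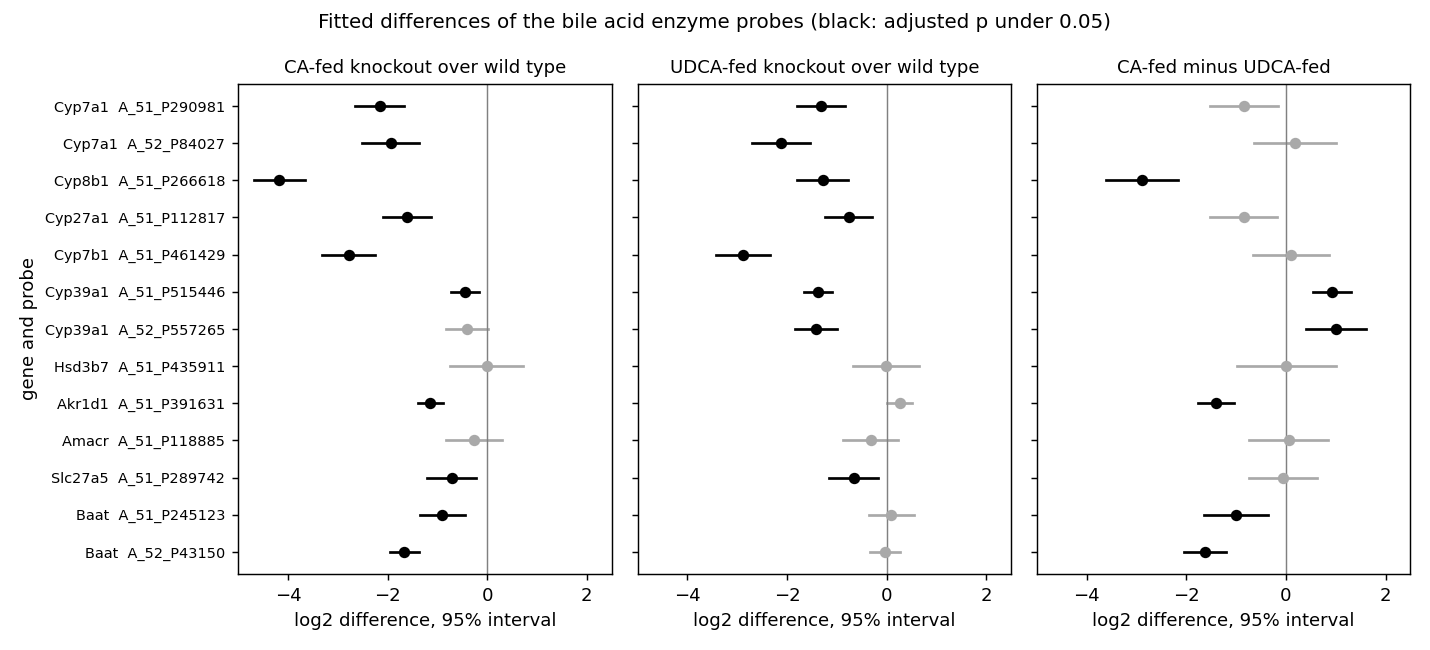
Fitted log2 differences (x axis) with 95% intervals for the 13 probes (rows), in black where the adjusted p was under 0.05 and in grey otherwise, for CA-fed over wild type, UDCA-fed over wild type, and CA-fed minus UDCA-fed. Cyp8b1, Akr1d1 and Baat lie left of 0 in the difference between the diets and both Cyp39a1 probes lie right of it.

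In the alternative route Cyp7b1 was the most lowered gene with either diet. Cyp7b1 (probe A_51_P461429, mm7, chromosome 3, 17798088 to 17798147), the oxysterol 7-alpha-hydroxylase, read -3.74, -2.81 and -1.83 (lowest, median, highest) in CA-fed livers and -3.81, -2.92 and -1.55 in UDCA-fed livers. No array of either diet reached the level of wild type. It was 6.88-fold lower with CA (log2 -2.78 ± 0.25, adjusted p = 2.26e-07) and 7.39-fold lower with UDCA (log2 -2.89 ± 0.25, adjusted p = 9.26e-07). It stood at place 33 from the most lowered of all genes with CA and at place 13 with UDCA. The difference of 0.10 ± 0.36 between the diets was not called (adjusted p = 0.861), and its 95% interval of -0.65 to 0.86 holds differences of either sign.

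The wild-type signal of Cyp7b1 was at the ceiling on the 3 arrays of each diet that had wild type in green, where a ratio understates the fall. With those values left out, only the arrays with the knockout in Cy3 remained, with means of -3.12 with CA and -3.03 with UDCA. No dye effect could be fitted on these arrays, and over all arrays it was 0.24 for this probe. The larger fall can therefore not be told apart from an effect of the dye. Within the slides that held both diets, CA-fed minus UDCA-fed was -1.05 on slide 3 and 0.11 on slide 4. Each of these slides held only 1 CA array, beside 2 UDCA arrays on slide 3 and 3 on slide 4. On slide 3 the diets also differed in the dye of the knockout. The values within slides, here and below, were adjusted for the fitted dye effect and were not tested.

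Cyp27a1, the mitochondrial sterol 27-hydroxylase (probe A_51_P112817, mm7, chromosome 1, 74975310 to 74975369), was lower with both diets and less so than Cyp7b1. Its ratios were -2.58, -1.78 and -0.22 (lowest, median, highest) in CA-fed livers and -1.33, -0.65 and -0.29 in UDCA-fed livers. CA array 2, with the highest ratio, had the wild type at the ceiling, and the other CA arrays lay at -1.32 or below. The fit gave -1.61 ± 0.22 with CA (3.05-fold lower, adjusted p = 1.88e-05) and -0.76 ± 0.22 with UDCA (1.69-fold lower, adjusted p = 0.0214). The UDCA call was lost without UDCA array 3 (-0.61, adjusted p = 0.0929) or 6 (-0.68, adjusted p = 0.0596), and with the slide as a fixed block (-0.37, adjusted p = 0.247).

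The difference between the diets in Cyp27a1, -0.85 ± 0.32, fell short of the threshold (adjusted p = 0.0584). It passed with the saturated value left out (-1.13, adjusted p = 0.00317) and with the slide as a fixed block (-1.68, adjusted p = 0.0106). Within slides it was -1.26 on slide 3 and -0.96 on slide 4. On every array of both diets Cyp7b1 was lowered more than Cyp27a1, by 0.56 to 1.78 in CA-fed livers and by 1.14 to 2.47 in UDCA-fed livers. Wild-type Cyp7b1 was at the ceiling on arrays 1 to 3 of each diet, and wild-type Cyp27a1 on CA array 2, so that the sizes there are not exact. On arrays 4 to 6 the log2 ratio of Cyp7b1 minus that of Cyp27a1 was -1.78 to -0.80 in CA-fed livers and -2.46 to -2.15 in UDCA-fed livers.

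Cyp39a1, which hydroxylates 24-hydroxycholesterol, ran the other way between the diets: it was lower than wild type with UDCA and closer to wild type with CA. Probe A_51_P515446 (mm7, chromosome 17, 41870816 to 41870875) read -0.72, -0.54 and 0.06 (lowest, median, highest) in CA-fed livers and -1.76, -1.43 and -0.76 in UDCA-fed livers. All 6 CA arrays lay above all 6 UDCA arrays, as they did for 7.11% of all genes. The fit of this probe gave -0.45 ± 0.13 with CA (adjusted p = 0.00763), -1.37 ± 0.13 with UDCA (adjusted p = 2.05e-06) and a difference of 0.92 ± 0.18 (adjusted p = 0.00211).

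The brighter Cyp39a1 probe, A_52_P557265 (mm7, chromosome 17, 41871184 to 41871243), read -0.72, -0.59 and 0.27 in CA-fed livers and -1.98, -1.72 and -0.39 in UDCA-fed livers, with some overlap. It was not called with CA (-0.41 ± 0.20, adjusted p = 0.0861). It was called lower with UDCA (-1.42 ± 0.20, adjusted p = 9.26e-05), and the difference between the diets was called (1.004 ± 0.28, adjusted p = 0.0163). Neither probe was at the ceiling on any array. With the slide as a fixed block, the difference was no longer called for either probe, at 0.94 (adjusted p = 0.0913) for A_51_P515446 and 0.63 (adjusted p = 0.426) for A_52_P557265. Within slides the values were 1.11 on slide 3 and 0.69 on slide 4 for the first of these probes, and 1.30 and 0.21 for the second.

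**Figure D3:**
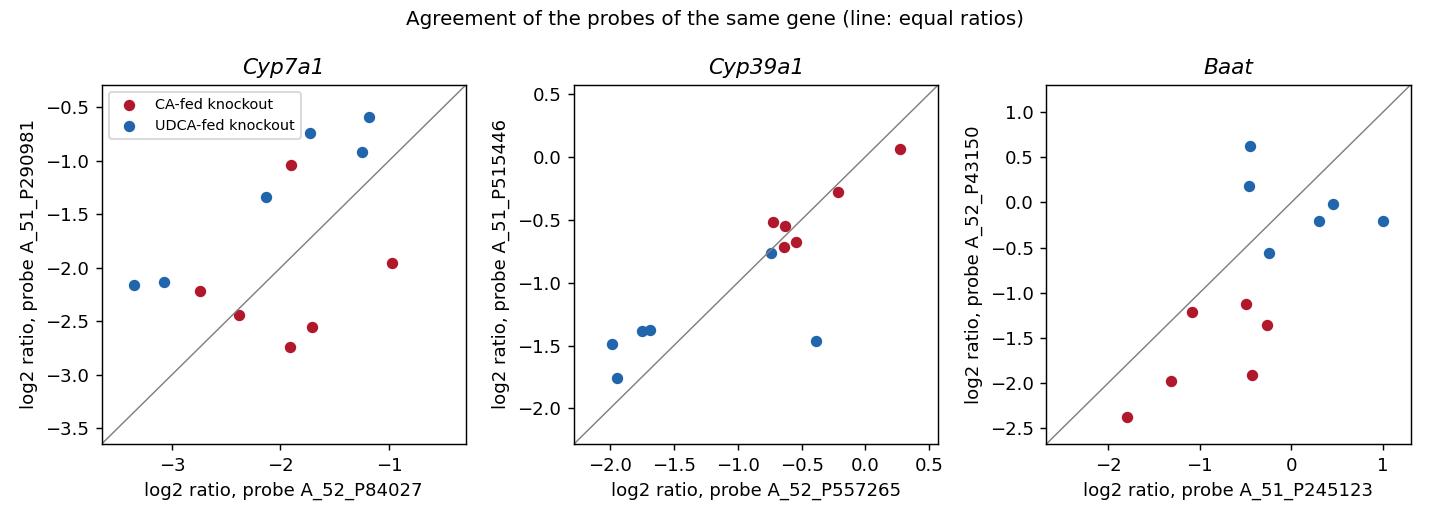
Log2 ratios of knockout over wild type per array by the brighter probe (x axis) and by the other probe of the same gene (y axis) for Cyp7a1, Cyp39a1 and Baat, with CA-fed arrays in red, UDCA-fed arrays in blue and a line where both probes are equal. All 6 UDCA points of Cyp7a1 and none of the CA points of Baat lie above the line.

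Among the enzymes of the shared steps, Akr1d1 could be read and differed between the diets. Akr1d1 (probe A_51_P391631, mm7, chromosome 6, 37498455 to 37498514) reduces the double bond of the steroid ring. It read -1.45, -1.07 and -0.94 (lowest, median, highest) in CA-fed livers and -0.33, 0.30 and 0.72 in UDCA-fed livers. The diets did not overlap, and the CA arrays lay closer together than those of any other of the 10 genes' brightest probes (SD 0.23, n = 6). Akr1d1 was 2.21-fold lower than wild type with CA (log2 -1.14 ± 0.12, adjusted p = 1.08e-06) and was not called with UDCA (0.26 ± 0.12, adjusted p = 0.131). The difference was -1.40 ± 0.17 (2.65-fold, adjusted p = 6.97e-05), with -1.46 on slide 3 and -1.33 on slide 4. The UDCA value was called higher without UDCA array 3 (0.37, adjusted p = 0.0444).

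The order of Akr1d1 and Cyp39a1 differed between the diets. On the same array Akr1d1 lay below Cyp39a1 (brighter probe) on all 6 CA arrays, by 0.24 to 1.22, and above it on all 6 UDCA arrays, by 0.41 to 2.34.

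Hsd3b7, which opens the ring modifications after 7-alpha-hydroxylation, and Amacr, the racemase of the side chain, were too bright to be measured as ratios. The green signal of Hsd3b7 (probe A_51_P435911, mm7, chromosome 7, 123900149 to 123900208) was at the ceiling on 11 of 12 arrays, and that of Amacr (probe A_51_P118885, mm7, chromosome 15, 11053673 to 11053732) on 12 of 12. Hsd3b7 had 4 usable CA and 5 usable UDCA values and Amacr 5 of each, the others being flagged by the scanner software as outliers. The Hsd3b7 ratios ranged from -1.57 to 1.12 in CA-fed livers and from -2.15 to 1.95 in UDCA-fed livers. Those of Amacr ranged from -1.51 to 0.91 and from -2.22 to 1.53. The sign went with the dye: every usable ratio of both genes was above 0 with the knockout in Cy5 and, save 1 Hsd3b7 value of 0.19 on a UDCA array, below 0 with it in Cy3.

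The fitted ratios of Hsd3b7 were -0.01 ± 0.34 with CA and -0.01 ± 0.30 with UDCA, and those of Amacr were -0.26 ± 0.26 and -0.32 ± 0.26. Their differences between the diets had 95% intervals of -0.98 to 0.996 for Hsd3b7 and -0.73 to 0.84 for Amacr. None was called, although Hsd3b7 with UDCA was called with the slide as a fixed block (-0.64, adjusted p = 0.00444) and Amacr with CA with the series table (-0.38, adjusted p = 0.0281). With a ceiling in one channel these values do not measure whether the genes changed. The red channel alone, which was at the ceiling for neither gene, was looked at after the data had been seen. Scaled between arrays, the mean log2 intensity of Hsd3b7 was 5.06 ± 0.11 in CA-fed livers (SD, n = 3), 6.28 ± 0.36 in UDCA-fed livers (n = 3) and 5.83 ± 0.18 in wild type (n = 6), and that of Amacr was 4.77 ± 0.06, 5.85 ± 0.30 and 5.81 ± 0.53. These are levels across arrays and slides with no test. Akr1d1 by the same measure was 0.77 ± 1.19 in CA-fed livers and 0.99 ± 0.44 in wild type, a gap of -0.22 where the ratios on the same array gave -1.14.

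**Figure D4:**
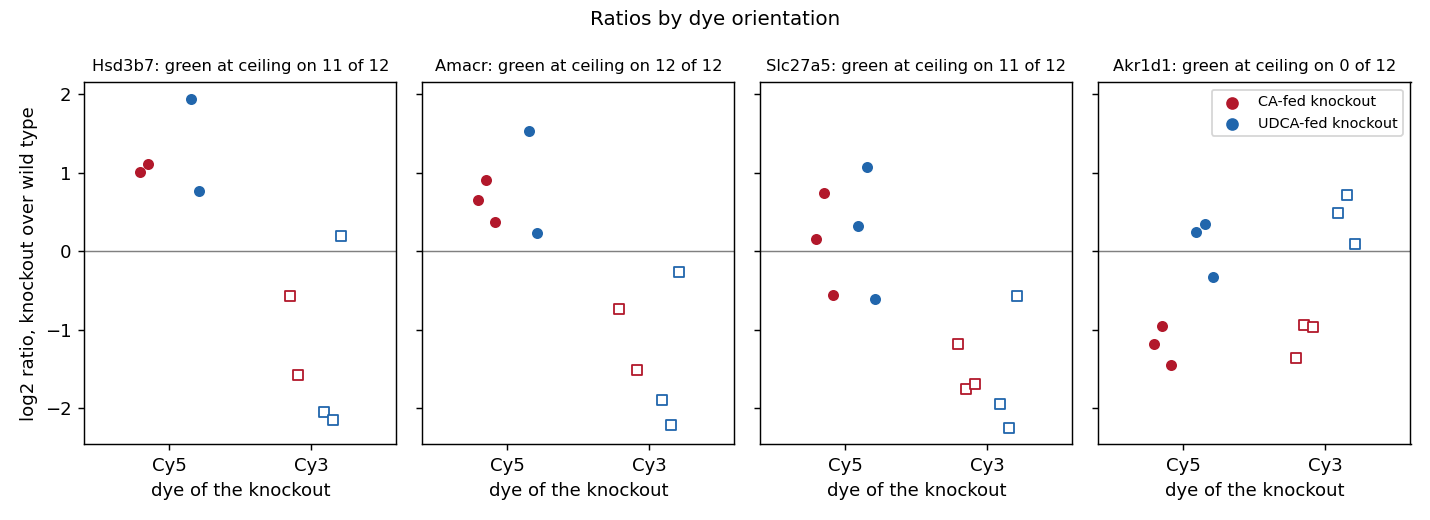
Log2 ratio of knockout over wild type (y axis) by the dye of the knockout RNA (x axis) for Hsd3b7, Amacr, Slc27a5 and, as a gene never at the ceiling, Akr1d1, with CA-fed arrays in red left of UDCA-fed arrays in blue and squares open where the knockout was in Cy3. The first 3 genes fall toward the Cy3 side in both diets while Akr1d1 keeps the diets apart in both orientations.

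Of the conjugation genes, Baat was lower with CA and near wild type with UDCA. The Baat probe printed above read -2.38, -1.64 and -1.12 (lowest, median, highest) in CA-fed livers and -0.56, -0.11 and 0.63 in UDCA-fed livers, with no overlap. It was 3.16-fold lower with CA (log2 -1.66 ± 0.14, adjusted p = 1.06e-07), and the ratio with UDCA was -0.03 ± 0.14 (adjusted p = 0.900, 95% interval -0.33 to 0.26). The difference was -1.63 ± 0.20 (3.09-fold, adjusted p = 7.01e-05), at -1.45 on slide 3 and -1.48 on slide 4.

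The brighter Baat probe, A_51_P245123 (mm7, chromosome 4, 49503287 to 49503298), has a given position shorter than the probe itself. It was at the ceiling in green on 7 arrays, 2 with CA and 5 with UDCA. It read -1.79, -0.79 and -0.27 in CA-fed livers and -0.46, 0.03 and 0.9995 in UDCA-fed livers, with overlap. Its ratios were -0.90 ± 0.21 with CA (adjusted p = 0.00197) and 0.10 ± 0.21 with UDCA (adjusted p = 0.790), and the difference was -0.997 ± 0.30 (adjusted p = 0.0235). On all 6 CA arrays the other probe read lower, by 0.13 to 1.48. The difference by the brighter probe lost its call without any 1 of 4 arrays (CA array 1 or 3, UDCA array 1 or 2, adjusted p up to 0.0592). It also lost its call with the slide as a fixed block (-1.12, adjusted p = 0.125) and with the scanner's processed log ratio (-0.77, adjusted p = 0.143). That of the unsaturated probe kept its call in each of these settings. With median centring both lost it, at -1.21 (adjusted p = 0.338) for the brighter and -1.74 (adjusted p = 0.133) for the unsaturated probe.

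Slc27a5, the bile acid CoA ligase (probe A_51_P289742, mm7, chromosome 7, 11575156 to 11575215), was at the ceiling in green on 11 of 12 arrays. It read -1.76, -0.87 and 0.75 in CA-fed livers and -2.25, -0.59 and 1.07 in UDCA-fed livers. All 6 arrays with the knockout in Cy3 were below 0, and of the 6 with it in Cy5, 4 were above 0. The fit gave -0.72 ± 0.23 with CA (adjusted p = 0.0134) and -0.66 ± 0.23 with UDCA (adjusted p = 0.0462). Neither call held without the dye term (adjusted p = 0.147 and 0.297), and the CA call was lost without CA array 3 (-0.56, adjusted p = 0.0627). The UDCA call was lost when any of 8 of the 12 arrays was left out, most by UDCA array 3 (-0.48, adjusted p = 0.182). The difference between the diets was -0.05 ± 0.32, with a 95% interval of -0.74 to 0.63. With the authors' series table it was -0.94 and called (adjusted p = 0.0160), and the CA ratio, -1.57 there, was -0.22 with the scanner's log ratio (adjusted p = 0.536). As for Hsd3b7 and Amacr, values at the ceiling do not measure whether Slc27a5 changed. In red alone, the log2 intensity was 4.21 ± 0.32 in CA-fed livers (SD, n = 3), 5.30 ± 0.50 in UDCA-fed livers (n = 3) and 6.05 ± 0.39 in wild type (n = 6), with 1 array at the ceiling.

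Counted by step, both classic genes were lower with either diet and 1 of them, Cyp8b1, was lower with CA than with UDCA. Of the 3 alternative genes, 2 were lower with CA and 3 with UDCA, and 1, Cyp39a1, was higher with CA than with UDCA. Of the 3 shared genes, 1, Akr1d1, was lower with CA and none with UDCA, but Hsd3b7 and Amacr were at the ceiling and not measured as ratios. Of the 2 conjugation genes, 2 were lower with CA and 1 with UDCA. Slc27a5, at the ceiling, is among the 2 with CA and is the 1 with UDCA, where its call was lost in most settings. Among all genes, 22.4% were lower with CA and 8.79% with UDCA. Between the diets, 8.87% were lower and 18.8% higher with CA. The median ratio of the classic genes was -3.05 with CA and -1.70 with UDCA, and that of the alternative genes -1.61 and -1.42. That of the conjugation genes was -0.81 with CA and -0.28 with UDCA. Of these 2 genes, 1 was at the ceiling on 3 or more CA arrays and both on 3 or more UDCA arrays. The Baat probe that never reached the ceiling, at -1.66 with CA and -0.03 with UDCA, is not in this median. No test was made over these small groups.

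Outside the 10 genes, the pathway list held the same direction of change with CA for most of its called members, with Ch25h as the exception. Of 15 other enzymes and peroxisomal factors, 13 were measured, of which 1 was higher and 6 lower with CA (median -0.46), and none was called with UDCA (median -0.05). Between the diets 1 was higher and 2 were lower with CA. Among all genes, 37.8% were higher and 22.4% lower with CA, and 17.2% were higher and 8.79% lower with UDCA. In the difference these shares were 18.8% and 8.87%. Ch25h, the cholesterol 25-hydroxylase, which macrophages also make, was 3.45 ± 0.39 higher with CA (adjusted p = 2.61e-06), 0.34 ± 0.39 with UDCA (adjusted p = 0.593) and 3.11 ± 0.56 in the difference (adjusted p = 0.00105). The called genes with the next largest changes with CA were Slc27a2 (-0.74 ± 0.21), a very long-chain acyl-CoA synthetase that was at the ceiling on 12 arrays, Acot8 (-0.65 ± 0.11), a peroxisomal thioesterase, and Pex2 (-0.61 ± 0.12), a peroxisome assembly factor. In the difference, Pex2 (-0.67 ± 0.17, adjusted p = 0.00792) and Acot8 (-0.47 ± 0.16, adjusted p = 0.0367) were lower with CA than with UDCA. In all, 8 of the 13 were at the ceiling in 3 or more arrays of the CA group and 8 in 3 or more arrays of the UDCA group. Genes called lower with CA, such as Slc27a2, are among them. For genes at the ceiling, neither a call nor its absence measures whether they changed.

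Regulators of these enzymes were mostly lower in the knockout with either diet. Of 18, 1 was higher and 13 were lower with CA (median -0.58), 2 were higher and 11 lower with UDCA (median -0.55), and 4 were lower with CA than with UDCA. The shares of all genes were 37.8% higher and 22.4% lower with CA and 17.2% higher and 8.79% lower with UDCA. In the difference, 8.87% of all genes were lower with CA. Nr1h4, the bile acid receptor, read -0.93 ± 0.13 with CA (adjusted p = 2.27e-05) and -0.02 ± 0.11 with UDCA (adjusted p = 0.922), with a difference of -0.91 ± 0.17 (adjusted p = 0.00175). Its target Nr0b2, a repressor of Cyp7a1, was lower with both, at -0.87 ± 0.15 and -0.76 ± 0.15. Klb, the co-receptor through which the intestinal signal lowers Cyp7a1, was lower with both, at -1.58 ± 0.13 and -0.57 ± 0.13. Hnf4a, a factor that drives many hepatocyte genes, was lower with both, at -0.61 ± 0.21 with CA (adjusted p = 0.0245) and -0.74 ± 0.21 with UDCA (adjusted p = 0.0245). Fgfr4, the receptor of that signal, was not called, at 0.08 ± 0.09 with CA (adjusted p = 0.470) and -0.26 ± 0.09 with UDCA (adjusted p = 0.0539). These 5 were named for their part in the pathway after their values had been seen.

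Clock genes moved in the same livers, and Cyp7a1 is known to follow the day. Of 15 clock genes 13 were measured, of which none was higher and 11 were lower with CA (median -0.73), and 1 was higher and 8 lower with UDCA (median -0.84). This compares with 37.8% higher and 22.4% lower of all genes with CA, and 17.2% higher and 8.79% lower with UDCA. The log2 ratio of their summed level ran from -1.71 to 0.34 over the CA arrays and from -1.87 to -0.38 over the UDCA arrays. The sums were lower with the knockout in Cy3 than in Cy5 in both diets, and Dbp was at the ceiling on 11 arrays. The median ratio of the clock genes was below 0 on every array, at -1.23 to -0.37 with CA and -1.26 to -0.46 with UDCA. The part of the hour of sampling in the enzyme values was not tested.

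Markers of other cells were counted against the 37.8% of all genes called higher with CA and the 17.2% called higher with UDCA. The shares called lower were 22.4% and 8.79%, and between the diets 18.8% were higher and 8.87% lower with CA. Of 16 measured cholangiocyte markers, 13 were higher with CA and 9 with UDCA, and 10 were higher with CA than with UDCA, with none lower, and the log2 ratio of their summed level was 1.25 to 2.62 on CA arrays and 0.63 to 1.39 on UDCA arrays. All 16 stellate cell and fibroblast markers were higher with CA and 13 with UDCA, with summed ratios of 1.23 to 3.04 and 1.37 to 2.44. Of 16 macrophage markers, 9 were higher and 6 lower with CA, and 10 higher and 2 lower with UDCA, with summed ratios of -0.83 to 2.01 and 0.33 to 1.64. The macrophage sums were lower with the knockout in Cy3 than in Cy5 in both diets, as were the cholangiocyte sums on the CA arrays. Their ranges therefore hold a split by dye. Of 8 measured T and B cell markers, 6 were higher and 1 was lower with CA and 2 were higher with UDCA, with summed ratios of 1.12 to 2.07 and 0.08 to 1.21. The part of these cells in the enzyme values was not tested.

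The share of hepatocytes could not be read from their own markers. Of 20 measured, all 20 were at the ceiling on 3 or more arrays of the CA group and 19 on 3 or more of the UDCA group, and their summed ratio ran from -2.75 to 1.91 over the CA arrays and from -3.06 to 2.43 over the UDCA arrays. Of 14 pancreas markers 4 were measured, all 4 lower with CA, against 22.4% of all genes, and none called with UDCA. Their summed ratio was -3.65 and -3.21 on CA arrays 3 and 4, -1.49 to -0.94 on the other CA arrays and -0.76 to 0.81 on UDCA arrays. Without CA array 3 the Cyp8b1 difference was -2.89 and without CA array 4 it was -2.64. These arrays were left out only 1 at a time, and the other CA arrays also had pancreas sums below 0. The part of pancreas tissue in the enzyme values was not tested.

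The genes with the ratios most like those of Cyp7a1, Cyp8b1 and Cyp7b1 were found by the root mean square difference over the 12 arrays among 9977 genes with a current symbol. For Cyp7b1 they were Mcm10 (0.57), Slc22a7 (0.78) and Rdh16f2 (0.81). For Cyp7a1 they were Nat8f2 (0.66), Fgf1 (0.68) and Ciart (0.68), the last a clock gene. For Cyp8b1 the nearest genes lay farther off, at 1.10 for Csrp3, 1.11 for Clec4f, a Kupffer cell lectin, and 1.12 for Cyp2c38. Clec4f read -3.37 ± 0.24 with CA and -0.18 ± 0.24 with UDCA. The arrays share slides and dyes, and the likeness was given no test.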

How the data were processed

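Green and red spot mean intensity and local background intensity were deposited for each array, read with Feature Extraction 9.5.3 per the file headers. The deposited scanner files also hold, per the file headers, a log10 ratio of processed signals, and the authors' series table holds 1 log2 ratio per spot. The CA columns of that table run opposite to knockout over wild type and were turned, and how it was normalized is not stated there.

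Intensities were corrected with normexp (offset 50), normalized by loess within arrays with control spots at weight 0, and fitted with limma 3.58.1 in R 4.3.3, with both diets and a dye effect per probe on 12 arrays (9 residual and 5.95 prior degrees of freedom). Probes well above background on at least 5 of 6 arrays in either RNA of either group were kept, and 0.937% of their values, flagged by the scanner software, were set to missing. Called means an adjusted p under 0.05. The brightest tested probe represents a gene. All 10 genes and all their probes are named, the neighbours by likeness are the 3 nearest genes, and up to 4 called pathway enzymes per comparison are named. The 10 genes and the other lists were chosen with earlier results of these data known. Which arrays form the dye swap is not given. The highest residual correlation of an opposite-dye pair was 0.109 with CA and 0.0929 with UDCA. The fit constrains the residuals, so these values cannot show which arrays share a liver. Each array was counted as 1 replicate although 1 pair in each group shares a liver, so that p-values are too small. The code was tested on simulated data.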

Additional observations from a re-analysis of the deposited data

Results flagged for a closer look

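Of the 13 probes, 6 differed between the diets by the test of the difference itself, with both probes of Baat and both of Cyp39a1 among them. Of all 21693 tested probes, 3564 were called higher and 2282 lower with CA than with UDCA. Cyp8b1 was lower in CA-fed than in UDCA-fed livers by a log2 difference of -2.89, Akr1d1 by -1.40, and Baat by -0.997 with the probe that reached the ceiling and -1.63 with the one that did not. Cyp39a1 was higher in CA-fed livers by 0.92 with probe A_51_P515446 and 1.004 with probe A_52_P557265. In none of the 26 sets of arrays (13 probes in each diet) did 1 array lie apart from the others by Dixon's test, which chance alone would flag in about 1 of 20.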

How the results depend on the processing

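Median centring in place of loess moved the median of all genes to 0.30 (CA), 0.32 (UDCA) and -0.03 (difference). It called 4939 probes higher and 1202 lower with CA, 1867 higher and 111 lower with UDCA, and 690 higher and 126 lower in the difference, against 7418, 5503, 3269, 1824, 3564 and 2282 with loess. Genes of the pathway called lower were then 3 (CA), 1 (UDCA) and 1 (difference), and 0 were higher in the difference; in the difference Cyp8b1 kept its call (-3.35, adjusted p = 0.0150) while Akr1d1 (-1.52, adjusted p = 0.182) and the unsaturated Baat probe (-1.74, adjusted p = 0.133) lost theirs with values of similar size. Probes called lower with UDCA were 2834 with the scanner's processed log ratio. A stricter filter on dim probes, under which fewer probes were tested, called 3232, 1971 and 1493 probes higher in the 3 comparisons. Cyp8b1 did not pass that filter, and Hsd3b7, Amacr and Slc27a5 gave no value with saturated values left out. The authors' series table called 3587 probes and 6 genes of the pathway lower in the difference. With the slide as a fixed block, 1346 probes were higher and 633 lower in the difference, and 0 genes of the pathway were higher.

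Leaving out 1 array at a time, the genes of the pathway called lower were 6 to 8 with CA, 4 to 6 with UDCA and 2 to 4 in the difference, and those called higher were 0 to 1 with UDCA, the 1 being Akr1d1 without UDCA array 3. Averaging each of the 81 possible dye-swap pairings gave 6 to 8, 4 to 7 and 2 to 4 lower. With UDCA, Slc27a5 was called in 45 and Cyp27a1 in 72 of these pairings. In the difference, the brighter Cyp39a1 probe was called in 71 and the brighter Baat probe in 75.

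Changes of sign occurred only in values that were not called with loess on all arrays. For Hsd3b7 with CA they were 0.017 without background correction, 0.33 with the scanner's log ratio, 0.35 with median centring and 0.081 with the slide as a random block. With UDCA they were 0.029 with the scanner's log ratio, 0.099 with median centring and 0.46 with the series table. They were also 0.13 with the random block, 0.0099 with the replicate block and 0.14 with the most correlated opposite-dye pair averaged as a dye-swap pair. Its difference was -0.13 with flagged values kept, -0.046 with the random block, -0.34 with the replicate block and -0.15 with the dye-swap pair averaged, and -0.82 with the series table, where it was called (adjusted p = 0.0194). Amacr with CA was 0.078 with the scanner's log ratio and 0.22 with the fixed slide block, and its difference was -0.23 with the series table, -0.14 with the replicate block and -0.20 with the dye-swap pair averaged. The Slc27a5 difference was 0.34 with the scanner's log ratio, and -0.94 and called with the series table (adjusted p = 0.0160). For Baat with UDCA, the unsaturated probe read 0.43 with median centring, and taking it in place of the brighter one gave -0.032. The Cyp7a1 difference was -0.16 without saturated values, -0.11 with the series table, -0.98 with the fixed slide block and -0.84 by the other probe, and that of Cyp7b1 was -0.027 with median centring, -0.094, -0.083, -1.10 and, with the random block, -0.017. Without 1 array, these values ran from -0.26 to 0.13 and -0.37 to 0.21 for Hsd3b7 with CA and UDCA, -0.27 to 0.36 for its difference, -0.16 to 0.37 for Amacr, -0.23 to 0.16 for Slc27a5, -0.085 to 0.40 for Cyp7a1 and -0.16 to 0.35 for Cyp7b1, and for Baat with UDCA -0.10 to 0.22 and -0.12 to 0.026. The causes were not tested.

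Residuals of arrays that share a number had correlations of -0.57 to 0.13. The fit itself constrains the residuals, so these values cannot show whether the numbers pair the arrays. The numbers are used here as names of arrays only. With the number as a replicate block, the Cyp8b1 difference was -2.89 (adjusted p = 0.000331) and that of Cyp27a1, -0.85, passed the threshold (adjusted p = 0.0183).

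Limits: 6 arrays from 5 livers per diet, wild type of unstated diet and hour, slides that mostly hold 1 diet, and a green channel at its ceiling for bright genes set the precision here.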
